A study of Mus musculus with 10 samples.

Results

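The 47 genes described here act in mitosis, and were taken as a fixed list of gene symbols from a total of 18292 symbols in the count matrices. Their messenger RNA was followed in mouse microglia, the resident macrophages of the brain, by droplet single-cell RNA-seq in 10 libraries from 5 groups of 2. All animals were C57BL/6, and the labels name no altered allele. Adult microglia were isolated directly from adult brain. In vitro microglia came from mixed glial cultures of neonatal cortex with the meninges removed, and were the cells that had come loose into the medium after 3 weeks. The 3 slice groups were organotypic brain slices of neonatal pups kept on a membrane for 1 day, 1 week or 3 weeks, and slices were pooled where needed to obtain cells. By the methods, human PDGF was added to the slice medium at each change of medium, and no such factor is named for the mixed glial cultures, so that PDGF and slice culture cannot be told apart in comparisons of slices with the other groups. Before capture the cells were sorted as live, CD11b-high and CD45-intermediate. Because every cultured group began from newborn tissue and the adult group did not, culture and the age of the donor animal cannot be told apart in any comparison against adult.

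Mitosis is driven by the kinase Cdk1 with its cyclins, and by the Polo-like and Aurora kinases, which together condense the chromosomes, open the nuclear envelope and build the spindle. The spindle checkpoint restrains the anaphase-promoting complex until attachment is complete, after which the complex targets cyclin B and securin for destruction, the chromatids part and the cleavage furrow divides the cell. Most of these genes are transcribed mainly in G2 and M phase, and are held off in resting cells by a complex built on the MuvB core that binds a short element near the start site called the cell cycle genes homology region (CHR), often beside CCAAT boxes bound by NF-Y. Microglia of the healthy adult brain divide rarely, whereas those of the newborn brain and of culture divide more often.

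The stretches of promoter just before the start site are shown for 7 of the 47 genes, to let the shared elements and their absence be seen beside the levels that follow. Capitals mark a CHR (TTTGAA or TTCGAA, or TTCAAA where TTTGAA lies on the opposite strand) or a CCAAT box (CCAAT, or ATTGG on the opposite strand). The sequences are from RefSeq, build GRCm38.p6, and each gives the 150 bases before the start in the direction of transcription.
Cdk1 (chr10:69352913-69353062, minus strand): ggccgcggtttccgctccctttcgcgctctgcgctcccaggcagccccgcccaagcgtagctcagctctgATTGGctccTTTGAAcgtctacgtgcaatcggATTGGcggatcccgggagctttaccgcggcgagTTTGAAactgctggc
Ccnb2 (chr9:70421555-70421704, minus strand): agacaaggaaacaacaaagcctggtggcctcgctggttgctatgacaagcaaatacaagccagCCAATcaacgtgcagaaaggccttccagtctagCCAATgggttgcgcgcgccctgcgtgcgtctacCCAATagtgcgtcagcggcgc
Cdc20 (chr4:118437344-118437493, minus strand): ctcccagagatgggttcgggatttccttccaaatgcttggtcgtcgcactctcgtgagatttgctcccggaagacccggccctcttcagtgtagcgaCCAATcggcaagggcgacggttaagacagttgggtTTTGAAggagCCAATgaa
Ube2c (chr2:164769779-164769928, plus strand): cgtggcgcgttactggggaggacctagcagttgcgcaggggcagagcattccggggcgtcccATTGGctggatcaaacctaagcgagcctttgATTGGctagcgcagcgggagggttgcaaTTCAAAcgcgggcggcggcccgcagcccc
Mki67 (chr7:135716380-135716529, minus strand): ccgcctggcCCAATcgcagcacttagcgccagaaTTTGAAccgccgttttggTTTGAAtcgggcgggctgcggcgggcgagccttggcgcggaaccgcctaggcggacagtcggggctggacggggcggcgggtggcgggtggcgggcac
Top2a (chr11:99024190-99024339, minus strand): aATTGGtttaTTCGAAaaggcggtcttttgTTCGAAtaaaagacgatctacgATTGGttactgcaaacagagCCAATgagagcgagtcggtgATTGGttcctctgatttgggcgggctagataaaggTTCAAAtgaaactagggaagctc
Birc5 (chr11:117849087-117849236, plus strand): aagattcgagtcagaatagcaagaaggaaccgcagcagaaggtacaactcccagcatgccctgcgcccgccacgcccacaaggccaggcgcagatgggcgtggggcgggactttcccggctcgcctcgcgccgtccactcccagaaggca

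The cyclin-dependent kinase Cdk1 and the proliferation marker Mki67 each had 2 CHR elements in this stretch. The 3 of Top2a, the enzyme that untangles sister DNA, were the most of the 7 shown. Ccnb2, which encodes cyclin B2, had 3 CCAAT boxes and its CHR elements lay outside the stretch printed, while Birc5, which encodes survivin, had neither element. RefSeq windows of 300 bases, from 250 before to 50 after the start, were found for 39 of the 47 genes, with 41 windows in all because some genes had more than 1 start. TTTGAA on either strand was in 32 of the 41 windows (78.0%) and in 17.9% of the 32851 windows of all genes, and TTCGAA in 3 (7.32%) and in 1.56%. At least 1 CCAAT box was in 32 windows (78.0%) and in 37.4% of all windows, and 2 or more boxes were in 22 (53.7%) and in 11.7%. A CHR of either form together with a CCAAT box was found in 30 windows (73.2%), against 7.52% of all windows. A CHR and a CCAAT box can share at most 1 letter where they adjoin, and a match is a description of the sequence only. No CHR and no CCAAT box was found in the windows of Birc5, Mad2l1, Melk, Nuf2, Nusap1 and Tacc3, all 6 of which were transcribed in the libraries below.

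In the libraries 19059 cells passed the study's limits, between 61 and 3799 a library, and the median depth was 1858 to 13966 unique molecular identifiers (UMIs) a cell. Both 1-week libraries were small, with 148 and 61 cells and as few as 385373 UMIs in total, so that a single UMI of a gene there moved its level more than in any other group. At most 23 cell barcodes were shared by any pair of libraries. A list of 11 microglial markers, with Csf1r, Cx3cr1 and the C1q genes, held 13383 to 59331 of every 1000000 UMIs in the cells that were not rich in mitosis UMIs. Cells with over 1% of their UMIs from a list of neutrophil markers, called neutrophil-rich below, were found in slices at 1 day (71 and 117 cells) and at 1 week (25 and 1) and in no other library. Adult replicate 1 and slice 3 weeks replicate 1 carry 1 study label and the other 8 libraries another.

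Together the 47 genes were scarce in adult microglia and several times more abundant in every cultured library. Of every 1000000 UMIs they took 149 and 147 in the adult libraries, 971 and 1444 in vitro, 881 and 1182 in 1-day slices, 620 and 1030 in 1-week slices and 1247 and 779 in 3-week slices. The lowest cultured library stood well above both adult libraries, whereas the 4 cultured groups overlapped each other. The group means were 148 ± 1.12 (SD, n = 2) in adult, 1208 ± 335 in vitro, 1031 ± 213 at 1 day, 825 ± 290 at 1 week and 1013 ± 331 at 3 weeks, so that the cultured means were 8.17, 6.97, 5.58 and 6.85 times the adult mean. With 2 libraries a group the smallest two-sided p of an exact permutation test is 0.333, so no test was made of this sum. Within the study label that adult replicate 1 shares with slice 3 weeks replicate 1, the level was 149 against 1247, a ratio of 8.39. Within the other label it was 147 against 779, a ratio of 5.30, and all 47 genes were higher in slices within each label, where 43.9% and 50.7% of all genes tested were.

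**Figure D1:**
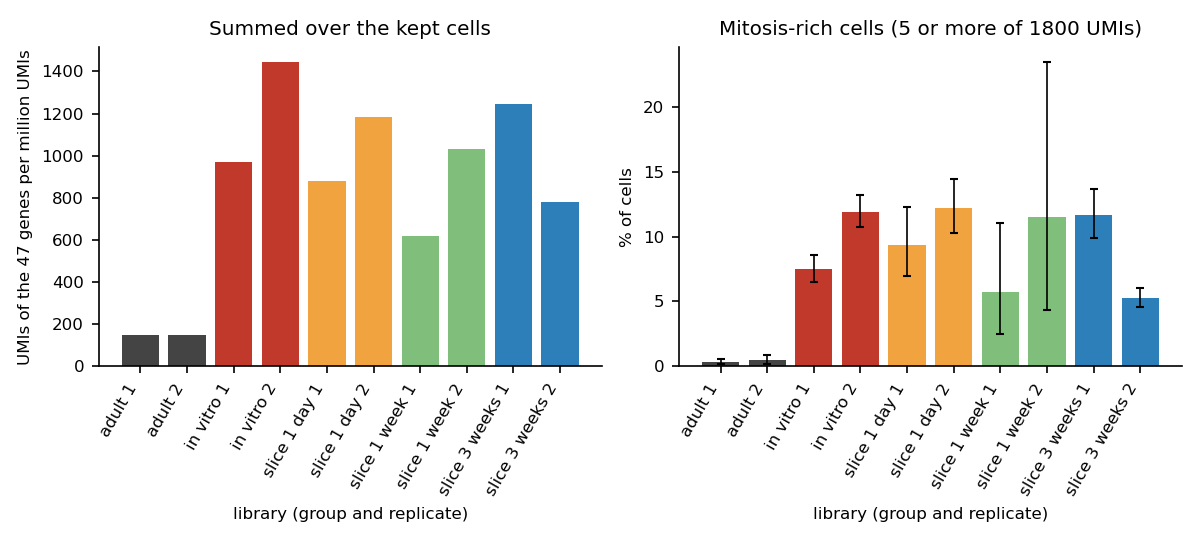
UMIs of the 47 mitosis genes per 1000000 UMIs summed over the kept cells of each library (left, bars), and percent of cells that held 5 or more of these UMIs after each cell was thinned to 1800 UMIs (right, bars with exact 95% binomial intervals, which cover counting error only). The adult libraries stand at 149 and 147 per 1000000 and at 0.295% and 0.471% of cells, below all 8 cultured libraries in both panels.

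Each gene was then tested by itself, in a single edgeR fit of the UMI counts added up within each library, and was called at a false discovery rate under 0.05 over all 12157 genes tested with a fold change over 1.5. All 47 genes passed the filter on low counts. Against adult microglia, 47 of 47 were called higher in vitro, where 22.4% of all genes tested were called higher. In slices at 1 day 47 of 47 were called higher (24.9% of all genes), and at 3 weeks again 47 of 47 (17.9% of all genes). At 1 week 29 of 47 were called higher (15% of all genes), and in none of these 4 comparisons was a member called lower, where 28.5%, 25.3%, 13.6% and 17.5% of all genes tested were in vitro, at 1 day, at 1 week and at 3 weeks. The median log2 fold change of the 47 was 3.24 in vitro, 3.03 at 1 day, 2.43 at 1 week and 3.16 at 3 weeks, while that of all genes tested lay between -0.11 and -0.03. At 1 week fewer of the 47, and also fewer of all genes tested, were called higher without either 1-week library alone. The median of the 47 at 1 week lay between 2.05 and 3.12 with 1 library left out. These 4 comparisons share the same 2 adult libraries. In 42 of the 47 genes all 8 cultured libraries lay above both adult libraries (14.8% of all genes tested), and with the 1-week libraries set aside this held for all 47 (20.1% of all genes tested). The study calls the samples of a group independent, but neither it nor the labels say whether they came from separate animals or cultures. The p-values therefore measure the spread between these libraries, which may be technical.

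**Figure D2:**
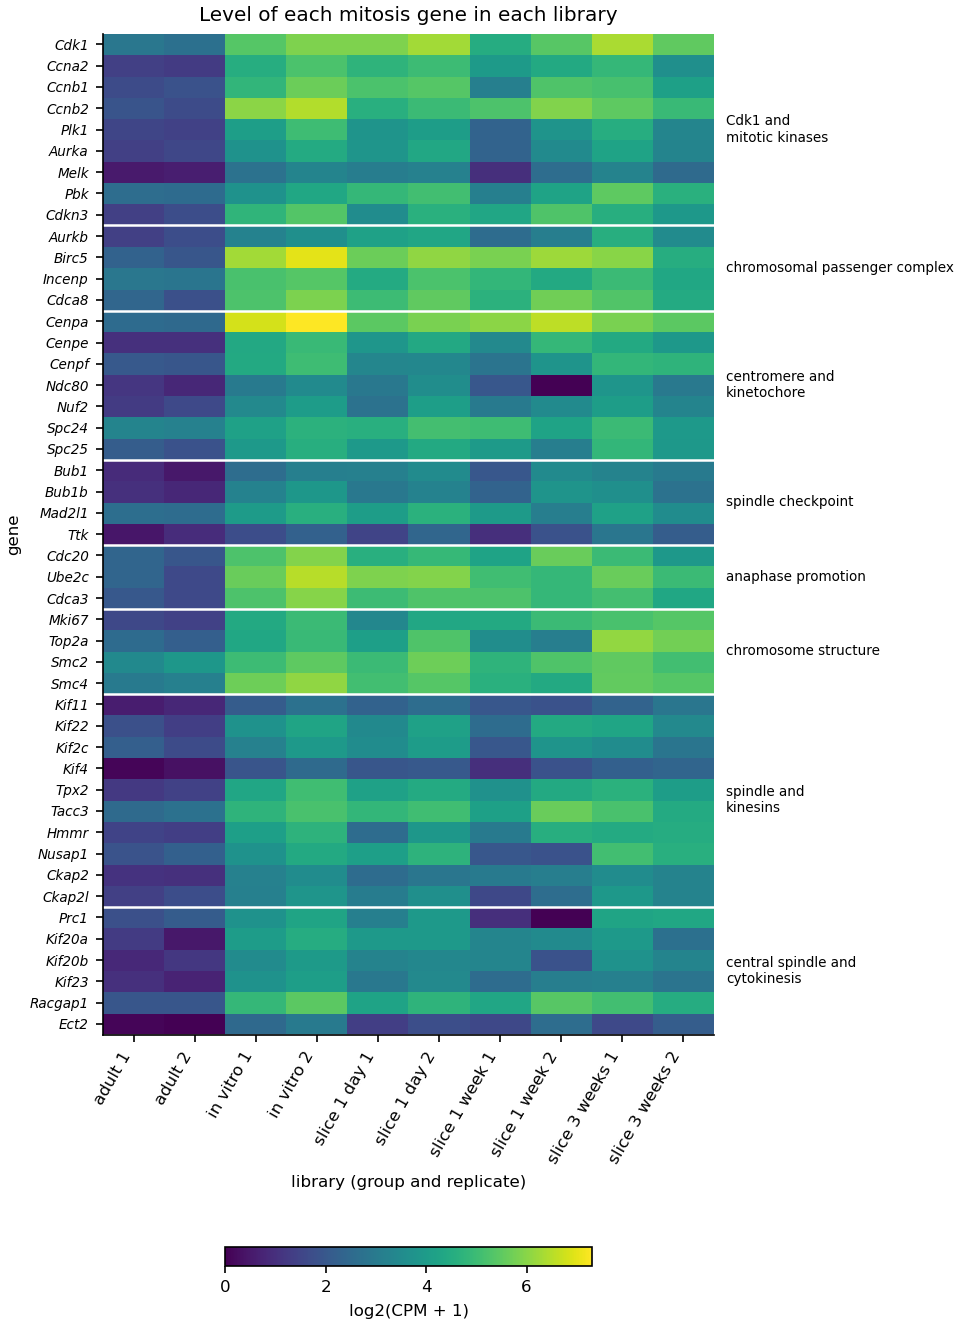
Level of each of the 47 genes (vertical, by role) in each of the 10 libraries (horizontal), as log2(CPM + 1), where CPM are UMIs per 1000000 of the scaled library size, with dark blue low and yellow high. The 2 adult columns are the darkest for nearly every gene, and Cenpa and Birc5 in in vitro replicate 2 hold the brightest cells.

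The 9 genes of Cdk1, its cyclins and the mitotic kinases, among them the Cdk-associated phosphatase Cdkn3, were called higher in every culture except at 1 week, where 5 of 9 were. Levels of single genes are given as CPM, which are UMIs per 1000000 of the library size after TMM scaling. The median log2 fold change of this role was 3.92 in vitro, 3.44 at 1 day and 3.38 at 3 weeks. Cdk1, the kinase that drives entry into mitosis, was at 6.45 and 5.41 CPM in the adult libraries, 40.7 and 57.9 in vitro, 58.2 and 77 in 1-day slices, 21.7 and 40.9 in 1-week slices and 81.4 and 44.5 in 3-week slices. Every cultured library was above both adult ones, and the highest and the lowest of the cultured levels were both in slices. In log2 fold change this was 3.04 ± 0.33 (SE) in vitro with an edgeR adjusted p of 3.0e-05, 3.5 ± 0.34 at 1 day, 2.23 ± 0.48 at 1 week and 3.38 ± 0.34 at 3 weeks. Ccnb2, a B-type cyclin that activates Cdk1, was at 2.71 and 2.19 CPM in the adult libraries, 64.5 and 87 in vitro, 23.1 and 30.5 in 1-day slices, 37.6 and 58.8 in 1-week slices and 43.9 and 29.8 in 3-week slices. Here both in vitro libraries were above every slice library. Its log2 fold changes against adult were 4.92 in vitro, 3.44 at 1 day, 4.17 at 1 week and 3.87 at 3 weeks, the first with an edgeR adjusted p of 5.6e-07. Pbk, a mitotic kinase, was at 5.13 and 4.89 CPM in the adult libraries, 12 and 19.3 in vitro, 28 and 33.1 in 1-day slices, 7.91 and 17.9 in 1-week slices and 43.6 and 24 in 3-week slices, and had the smallest rise of the group in vitro at 1.64 ± 0.34. In slices at 3 weeks its log2 fold change was 2.73. At 1 week Plk1, Aurka, Melk and Pbk were not called, at 1.86, 1.74, 2.2 and 1.13 on the log2 scale.

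The 4 genes of the chromosomal passenger complex, which corrects faulty attachments with Aurora B kinase and later guides cytokinesis, were all called higher in vitro and in slices at 1 day and 3 weeks, with medians of 3.17, 3.34 and 3.08 on the log2 scale. Birc5 encodes the subunit survivin, and was at 3.88 and 2.83 CPM in the adult libraries, 76.4 and 126 in vitro, 49 and 66.6 in 1-day slices, 55.3 and 74.2 in 1-week slices and 62.5 and 22.5 in 3-week slices. The 2 in vitro libraries were the highest and slice 3 weeks replicate 2 the lowest of the cultured ones, still far above adult. The log2 fold changes were 4.88 in vitro, 4.08 at 1 day, 4.18 at 1 week and 3.6 at 3 weeks. Cdca8, which encodes borealin, was at 4.32 and 2.45 CPM in the adult libraries, 37.3 and 57.2 in vitro, 30.9 and 44.9 in 1-day slices, 24.7 and 51.2 in 1-week slices and 38.9 and 21.1 in 3-week slices. The cultured libraries again overlapped each other and none overlapped adult, with log2 fold changes of 3.74 in vitro, 3.44 at 1 day, 3.26 at 1 week and 3.06 at 3 weeks. Aurkb, the kinase itself, was the only member of the complex not called at 1 week (1.59 ± 0.80, edgeR adjusted p = 0.16).

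At the centromere and kinetochore, where spindle fibres attach, 7 of 7 genes were called higher in vitro, at 1 day and at 3 weeks, and 4 of 7 at 1 week. Cenpa, the histone H3 variant that marks the centromere, was at 4.83 and 4.64 CPM in the adult libraries, 112 and 156 in vitro, 43.2 and 55.2 in 1-day slices, 64.2 and 94.7 in 1-week slices and 55.6 and 43.2 in 3-week slices. Both in vitro levels were above every slice level. Its log2 fold change in vitro was 4.82 ± 0.26 with an edgeR adjusted p of 2.7e-07, and in slices it was 3.38, 4.0 and 3.37 at 1 day, 1 week and 3 weeks. Spc24, a subunit of the Ndc80 complex, was at 8.86 and 8.24 CPM in the adult libraries, 17.1 and 24.6 in vitro, 23.3 and 33.7 in 1-day slices, 31.6 and 17.9 in 1-week slices and 30.3 and 14.3 in 3-week slices. It was the least changed of all 47 in vitro, at 1.28 ± 0.35 (edgeR adjusted p = 0.0098), and at 3 weeks it was 1.34 ± 0.36. Cenpf, a large kinetochore protein that builds up in G2, was at 3.08 and 2.83 CPM in the adult libraries, 20.7 and 31.7 in vitro, 9.17 and 9.48 in 1-day slices, 5.93 and 12.8 in 1-week slices and 27.6 and 25.9 in 3-week slices. Slices at 1 day and 1 week were low and in vitro and 3-week slices high, with log2 fold changes of 3.14 in vitro, 1.65 at 1 day, 1.43 at 1 week and 3.16 at 3 weeks, of which that at 1 week was not called. Ndc80 and Nuf2 were not called at 1 week either, and no UMI of Ndc80 was listed in slice 1 week replicate 2.

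The 4 spindle checkpoint genes had medians of 2.79 in vitro, 2.77 at 1 day and 3.07 at 3 weeks on the log2 scale, each with 4 of 4 called higher, and 2 of 4 at 1 week. Mad2l1, which encodes the checkpoint protein Mad2, was at 5.27 and 5.02 CPM in the adult libraries, 14.9 and 23.4 in vitro, 15.7 and 24.4 in 1-day slices, 14.8 and 7.68 in 1-week slices and 16.9 and 10.8 in 3-week slices. The lowest cultured level, in slice 1 week replicate 2, was still above adult, and the log2 fold changes were 1.89 in vitro, 1.99 at 1 day, 1.28 at 1 week and 1.39 at 3 weeks, with no call at 1 week. Bub1b, which encodes the checkpoint kinase BubR1, was at 1.03 and 0.773 CPM in the adult libraries, 8.38 and 13.6 in vitro, 6.55 and 8.35 in 1-day slices, 3.95 and 12.8 in 1-week slices and 11.5 and 5.73 in 3-week slices, and its groups did not overlap adult either. Its log2 fold changes were 3.56 in vitro, 3.03 at 1 day, 2.84 at 1 week and 3.16 at 3 weeks. The call of Bub1b at 1 week was lost without any 1 of the 4 libraries (2.05 to 3.80) and when cells were thinned to an equal depth (1.6, edgeR adjusted p = 0.70), and that of Bub1, a related kinase, without adult replicate 2, without slice 1 week replicate 2 and when thinned. Ttk, the kinase that starts the checkpoint signal, was also not called at 1 week (1.3 ± 1.45).

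The 3 genes grouped as anaphase promotion had the highest median of the 8 roles in vitro (4.23) and at 1 day (3.74), and were called in all 4 comparisons with adult. The group is a loose one, since Cdca3 acts through the kinase Wee1. At 1 week the call of Cdc20 was lost without slice 1 week replicate 2 (2.25) and that of Ube2c without slice 1 week replicate 1 (3.12). Ube2c, the enzyme that loads ubiquitin for the anaphase-promoting complex, was at 4.17 and 2.06 CPM in the adult libraries, 48 and 89.97 in vitro, 58.2 and 59.96 in 1-day slices, 32.6 and 28.1 in 1-week slices and 48.1 and 30.3 in 3-week slices. Adult levels were the lowest and in vitro replicate 2 the highest, while both 1-day slices were above in vitro replicate 1. The log2 fold changes were 4.39 in vitro, 4.16 at 1 day, 3.24 at 1 week and 3.56 at 3 weeks. Cdca3, which promotes destruction of the kinase Wee1, was at 3 and 2.06 CPM in the adult libraries, 36.9 and 61.3 in vitro, 30.9 and 38.3 in 1-day slices, 37.6 and 28.1 in 1-week slices and 33.8 and 19.3 in 3-week slices, and Cdc20, the activator of the complex that the checkpoint restrains, was at 4.25 and 2.83 CPM in the adult libraries, 37.4 and 60.1 in vitro, 23.3 and 28.8 in 1-day slices, 17.8 and 48.6 in 1-week slices and 30.5 and 13.7 in 3-week slices. In both genes adult was lowest, and for Cdc20 slice 3 weeks replicate 2 was the nearest to it.

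Genes of chromosome structure held the common markers of dividing cells. Mki67, which coats mitotic chromosomes, was at 1.98 and 1.67 CPM in the adult libraries, 20.8 and 30.6 in vitro, 9.44 and 19.8 in 1-day slices, 20.8 and 30.7 in 1-week slices and 35.8 and 40.2 in 3-week slices. The 3-week slices were the highest, and slice 1 day replicate 1 the lowest of the cultured libraries. Its log2 fold changes were 3.79 in vitro, 3.04 at 1 day, 3.69 at 1 week and 4.35 at 3 weeks, the last with an SE of 0.37 and an edgeR adjusted p of 1.7e-05. Top2a, topoisomerase II alpha, was at 4.83 and 3.61 CPM in the adult libraries, 19.5 and 29.7 in vitro, 16.5 and 38 in 1-day slices, 10.9 and 7.68 in 1-week slices and 68.8 and 53 in 3-week slices. The 3-week slices stood above all other libraries, and the 1-week slices were between adult and the rest. The log2 fold changes were 2.51 in vitro, 2.71 at 1 day, 1.2 at 1 week and 3.81 at 3 weeks, with no call at 1 week (edgeR adjusted p = 0.22). Smc4 and Smc2 form the core of condensin, the ring that compacts chromosomes. Smc4 was at 6.89 and 8.11 CPM in the adult libraries, 50.9 and 67.1 in vitro, 33 and 40.8 in 1-day slices, 23.7 and 20.5 in 1-week slices and 45.3 and 40.3 in 3-week slices, and was higher in vitro than in any slice library. Smc2 was at 10.1 and 13.4 CPM in the adult libraries, 30.8 and 43.7 in vitro, 30.7 and 49.97 in 1-day slices, 25.7 and 38.4 in 1-week slices and 44.9 and 33.2 in 3-week slices. Its groups did not overlap adult either, with log2 fold changes of 1.68 in vitro, 1.82 at 1 day, 1.37 at 1 week and 1.74 at 3 weeks, all of them called. The call of Smc2 at 1 week was lost without adult replicate 1 (1.21), slice 1 week replicate 1 (1.75), slice 1 week replicate 2 (1.11) or the neutrophil-rich cells (1.2), and its sign turned when cells were thinned to an equal depth (-0.31).

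Among the 10 genes of the spindle and its kinesins the medians were 2.86 in vitro, 2.66 at 1 day and 3.12 at 3 weeks, with 10 of 10 called in each, and 4 of 10 at 1 week. Tacc3, which stabilises spindle fibres with clathrin, was at 4.76 and 5.54 CPM in the adult libraries, 25.6 and 35.9 in vitro, 27.3 and 32.4 in 1-day slices, 16.8 and 48.6 in 1-week slices and 35.4 and 21.1 in 3-week slices. Tpx2, which activates Aurora A on the spindle, was at 1.32 and 1.67 CPM in the adult libraries, 18.9 and 32.5 in vitro, 17 and 20.9 in 1-day slices, 11.9 and 20.5 in 1-week slices and 24.1 and 15.6 in 3-week slices. Neither gene had a cultured library that reached down to adult. Kif2c, a kinesin that takes microtubule ends apart, rose least of the group in vitro and at 3 weeks (1.93 and 1.45 on the log2 scale), and Kif4, a chromosome-bound kinesin, rose most (4.65 and 4.73). The 6 of this group that were not called at 1 week were Kif11, Kif22, Kif2c, Kif4, Nusap1 and Ckap2l. Nusap1, which bundles spindle fibres near chromosomes, was at 2.64 and 3.74 CPM in the adult libraries, 12.2 and 20.4 in vitro, 16.5 and 25.1 in 1-day slices, 2.96 and 2.56 in 1-week slices and 33.2 and 23.4 in 3-week slices, so that its 1-week libraries lay inside the adult range or just below it.

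The 6 genes of the central spindle and cytokinesis, which act last, had medians of 3.82 in vitro, 3.22 at 1 day and 3.23 at 3 weeks, and 5 of 6 were called at 1 week. Without slice 1 week replicate 1 the calls of Kif20a (3.38), Kif20b (1.38), Kif23 (3.15) and Ect2 (6.56) at 1 week were lost. Without slice 1 week replicate 2 those of Kif20a (3.11), Kif23 (2.45) and Ect2 (5.13) were lost. Racgap1, part of the centralspindlin complex, was at 2.86 and 2.83 CPM in the adult libraries, 28.1 and 42.7 in vitro, 17.8 and 25.7 in 1-day slices, 18.8 and 40.9 in 1-week slices and 33.1 and 21.8 in 3-week slices. Kif20a, a kinesin that brings the passenger complex to the midzone, was at 1.39 and 0.386 CPM in the adult libraries, 15.3 and 22 in vitro, 14.2 and 14 in 1-day slices, 8.89 and 10.2 in 1-week slices and 14.1 and 5.4 in 3-week slices. All cultured libraries of both genes were above adult. Ect2, which switches on RhoA at the cleavage furrow, had a single UMI in adult replicate 1 and none in adult replicate 2. Pooled over the libraries, 397 UMIs in vitro against this 1 gave a ratio of 127 after scaling for depth (exact 95% interval 22.7 to 5042), and 89 UMIs at 3 weeks a ratio of 65.3 (11.4 to 2607). These intervals, like all others below, cover counting error only. Prc1, which bundles the central spindle, was at 2.42 and 3.35 CPM in the adult libraries, 12.1 and 18.3 in vitro, 7.86 and 14.5 in 1-day slices, 0.988 and 0 in 1-week slices and 18.1 and 19.2 in 3-week slices, and was the only member whose 1-week libraries were both below both adult libraries (-1.97 ± 1.24, edgeR adjusted p = 0.26).

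**Figure D3:**
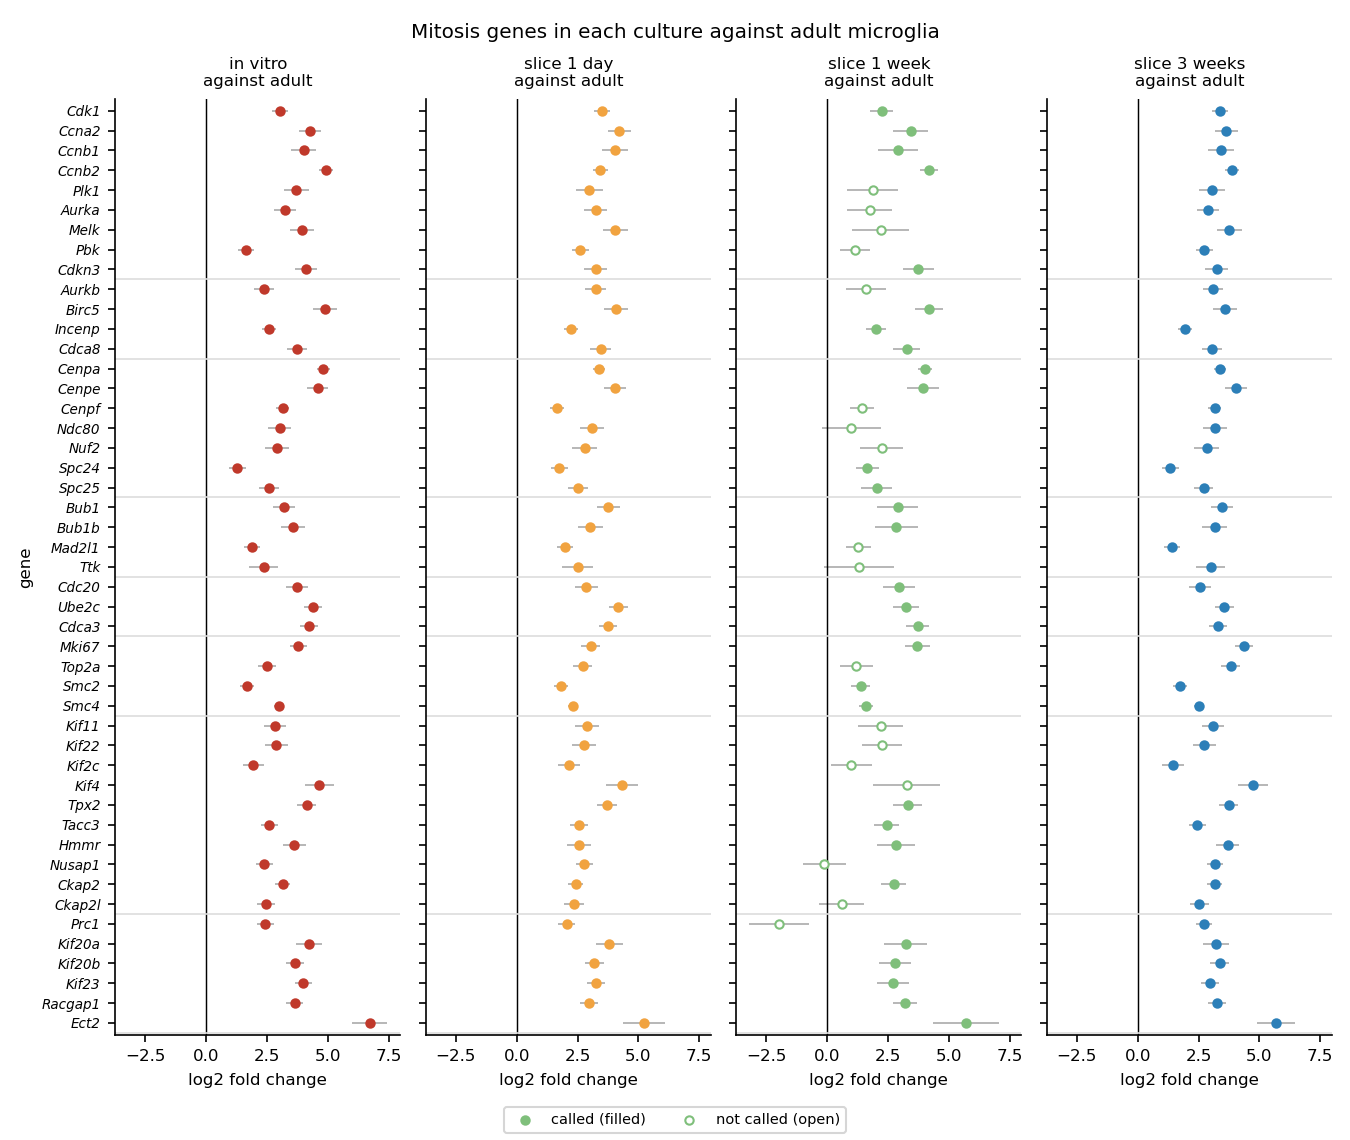
Log2 fold change of each of the 47 genes (vertical, by role) in each cultured group against adult microglia, with points for the estimates and lines for 1 standard error on each side. Filled points were called and open points were not, and the 18 open points are all in the panel of slices at 1 week.

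Between the 3-week slices and the mixed glial cultures, both kept for about the same time, most members did not pass the test and a few moved in each direction. In vitro 6 of 47 were called higher than in 3-week slices, where 13.3% of all genes tested were called higher, and 2 of 47 lower, where 19.9% of all genes were. The median log2 difference of the members was 0.29, and lay between -0.03 and 0.69 with 1 library left out. The 6 were Ccnb2 (1.05 ± 0.23), Birc5 (1.28 ± 0.40), Cenpa (1.44 ± 0.21), Cdc20 (1.18 ± 0.39), Cdca3 (0.91 ± 0.29) and the midzone kinesin Kif23 (1.02 ± 0.27). Top2a (-1.3 ± 0.32) and Pbk (-1.09 ± 0.30) were lower. The edgeR adjusted p was 5.6e-04 for Cenpa and 0.0054 for Ccnb2, and between 0.0091 and 0.035 for the other 6. Only some of these calls withstood the loss of a library. Without in vitro replicate 2 only Cenpa of the first 6 was still called, and the others were at 0.57 (Cdca3) to 0.94 (Birc5). Without slice 3 weeks replicate 2 the calls of Birc5 (0.76), Cdc20 (0.74) and Cdca3 (0.60) were lost. Without in vitro replicate 1 those of Pbk (-0.72) and Top2a (-0.96) were lost. The counts of calls also changed with the library left out. Without slice 3 weeks replicate 1, which leaves both groups within a single study label, they were 19 higher and 1 lower (40.4% and 2.13%, beside 17.2% and 20% of all genes in the same fit). With study label as a term in the fit they were 12 higher and 1 lower (25.5% and 2.13%, beside 14.4% and 20.6%), so the label moves with this result, and its part was not tested.

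Against slices at 1 day, 6 of 47 members were called higher in vitro (13.3% of all genes tested) and 1 of 47 lower (18.6%), with a median log2 difference of 0.30 that lay between -0.03 and 0.65 with 1 library left out. Ccnb2 (1.48 ± 0.24), Cenpa (1.43 ± 0.22) and Cenpf (1.49 ± 0.25) were higher with edgeR adjusted p-values of 0.0011, 6.9e-04 and 0.0011, and each call held with any 1 library left out. Smc4 (0.66), the microtubule-binding Ckap2 (0.72) and Ect2 (1.5) were higher too, and Pbk (-0.97) was lower, by the same test. The call of Ckap2 was lost without any 1 of the 4 libraries, those of Ect2 and Pbk without 3 of the 4 and that of Smc4 without 2, and all 4 were lost when cells were thinned to an equal depth, at log2 fold changes of 1.1 for Ckap2, 1.83 for Ect2, -0.94 for Pbk and 0.59 for Smc4. Without in vitro replicate 2 the counts were 3 higher and 1 lower, and without slice 1 day replicate 1 they were 3 and 0. In 17 members both in vitro libraries lay above both 1-day libraries, and in 4 members below, where 35.6% and 41.4% of all genes tested did.

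Between 3 weeks and 1 day in slices most members did not pass the test. At 3 weeks 3 of 47 were called higher than at 1 day (13.9% of all genes tested), with a median log2 difference of -0.01 that lay between -0.42 and 0.29 with 1 library left out. The 3 were Cenpf (1.51 ± 0.25, edgeR adjusted p = 0.0018), Mki67 (1.31 ± 0.30, edgeR adjusted p = 0.0089) and Top2a (1.1 ± 0.33, edgeR adjusted p = 0.029). In Mki67 and Cenpf both 3-week libraries were far above both 1-day ones. Without slice 3 weeks replicate 1 the counts were 2 higher and 9 lower (4.26% and 19.1%, beside 17.7% and 15.7% of all genes in the same fit), and with study label as a term they were 2 higher and 5 lower (4.26% and 10.6%, beside 15.4% and 14.8%). The call for Cenpf held with any 1 library left out, and that for Top2a was lost without slice 1 day replicate 1 (0.67) or slice 3 weeks replicate 1 (0.88). At 1 week 2 of 47 were called lower than at 1 day (5.25% of all genes tested), Nusap1 (-2.9 ± 0.68) and Prc1 (-4.02 ± 0.96). At 3 weeks 4 of 47 were called higher than at 1 week (2.23% of all genes tested): Cenpf (1.74), Top2a (2.62), Nusap1 (3.3) and Prc1 (4.7). The 1-week values rest on few molecules, 4 UMIs of Nusap1 and 1 of Prc1 over both libraries. Pooled counts gave a ratio of 3 weeks to 1 week of 9.12 (exact 95% interval 3.55 to 33.5) for Nusap1 and of 26.5 (4.74 to 1049) for Prc1. After every cell was thinned to an equal depth none of the 47 was called between 1 week and 1 day or between 3 weeks and 1 week, and without either 1-week library alone 0 were called against 1 day and 0 or 1 against 3 weeks. The thinned 1-week libraries held 0 to 2 UMIs each of Cenpf, Top2a, Nusap1 and Prc1. Between 3 weeks and 1 week the fitted log2 fold changes were then 2.66 for Top2a, 3.08 for Cenpf and 1.87 for Nusap1, so that the lost calls do not show that these differences went away. Without slice 1 day replicate 2 neither Nusap1 (-2.54) nor Prc1 (-3.46) was called between 1 week and 1 day.

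**Figure D4:**
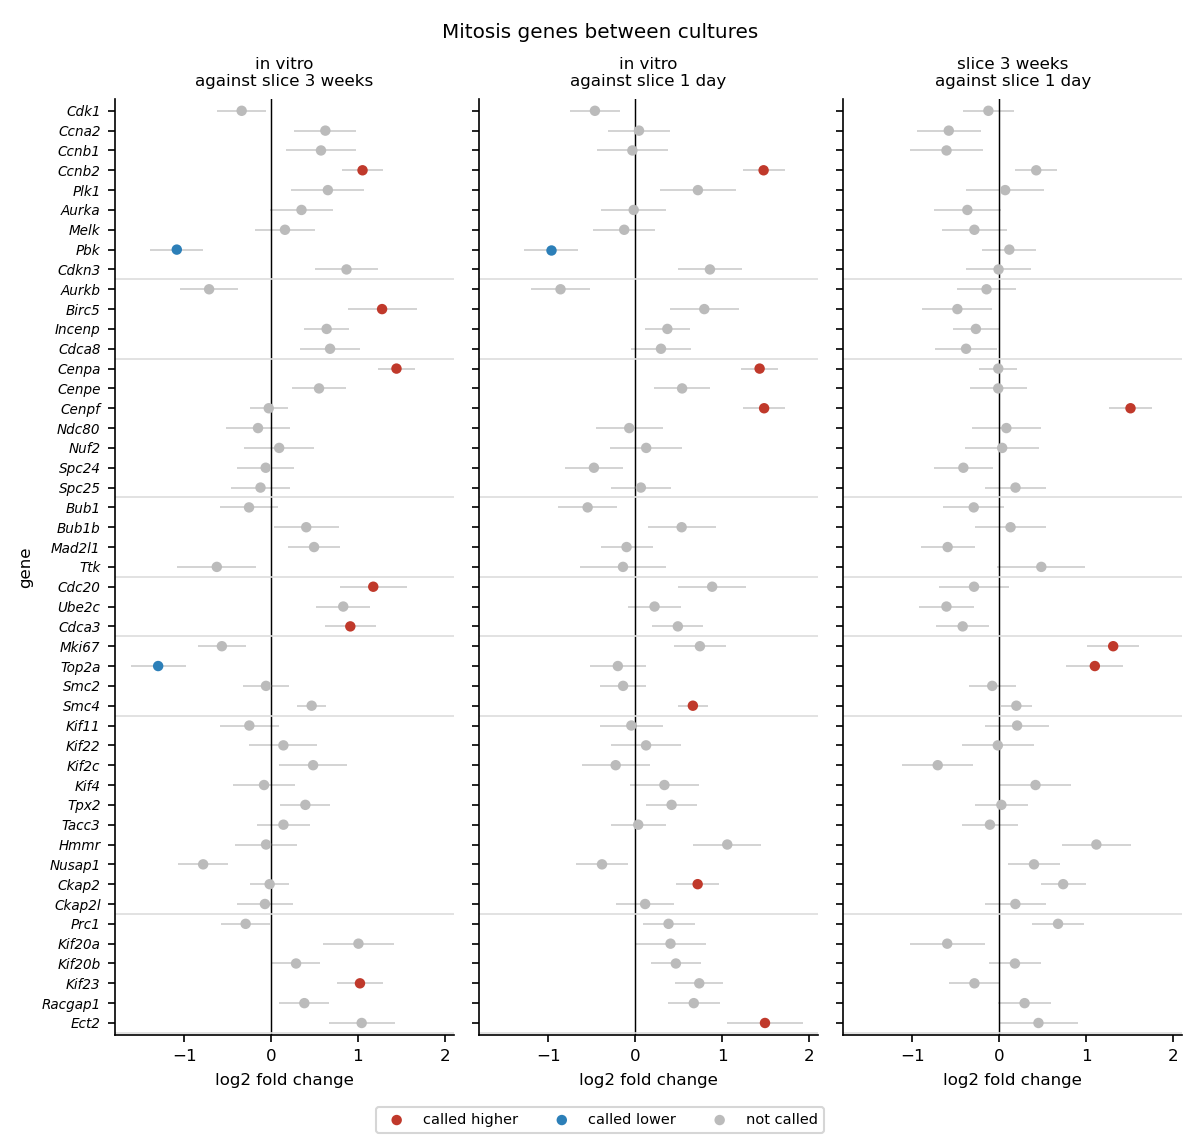
Log2 fold change of each of the 47 genes (vertical, by role) in 3 comparisons between cultures, with points for the estimates and lines for 1 standard error on each side. Red points were called higher, blue points lower and grey points not at all: 8, 7 and 3 genes were called in the 3 panels, of which Ccnb2 and Cenpa stand to the right in both in vitro panels.

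The rise of the summed level went with more cells that held several mitosis UMIs at once. Each cell of at least 1800 UMIs was thinned to 1800, and cells with 5 or more UMIs over the 47 genes were counted as mitosis-rich, which is a range of a count and not a cell type. In adult brain 10 of 3386 cells (0.295%, exact 95% interval 0.142 to 0.542) and 9 of 1909 (0.471%, 0.216 to 0.893) were mitosis-rich. In vitro 181 of 2417 cells (7.49%, 6.47 to 8.61) and 320 of 2682 (11.9%, 10.7 to 13.2) were. In slices at 1 day 46 of 492 (9.35%, 6.93 to 12.3) and 124 of 1014 (12.2%, 10.3 to 14.4) were. All these cultured shares are far above adult and overlap each other. At 1 week 8 of 139 cells (5.76%, 2.52 to 11.0) and 6 of 52 (11.5%, 4.35 to 23.4) were mitosis-rich, and at 3 weeks 132 of 1130 (11.7%, 9.87 to 13.7) and 193 of 3689 (5.23%, 4.54 to 6.00). Exactly 5 UMIs were held by 12 and 20 cells in vitro (6.63% and 6.25% of the mitosis-rich cells), 7 and 15 at 1 day (15.2% and 12.1%), 3 and 1 at 1 week (37.5% and 16.7%), 11 and 17 at 3 weeks (8.33% and 8.81%) and 0 and 2 in adult. Just outside the limit, 4 UMIs were held by 16 and 26 cells in vitro, 8 and 19 in 1-day slices, 0 and 2 in 1-week slices, 14 and 25 in 3-week slices and 1 and 1 in adult. No UMI of any member was seen after thinning in 87.4% and 87.7% of adult cells and in 47.4% to 71.6% of cells in the cultured libraries.

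Mitosis-rich cells held 70.9% and 77.9% of the thinned mitosis UMIs in vitro, 69.1% and 67.1% in 1-day slices, 48.1% and 69.6% in 1-week slices and 80.6% and 75.6% in 3-week slices. In adult brain they held 35.5% and 45.9%, so that they held under 50% in both adult libraries and in slice 1 week replicate 1. A mitosis-rich cell had on average 13.7 and 14.1 mitosis UMIs in vitro, 9.30 and 10.2 in 1-day slices, 8 and 9.17 in 1-week slices and 14.5 and 18.3 in 3-week slices, and the median number of different members seen in it was 9 and 10, 7 and 8, 6.5 and 7, and 10.5 and 12. The few adult cells that passed the limit were no weaker, at 25.1 and 23.1 UMIs and 17.5 and 16 different members. Outside the mitosis-rich cells, 457 and 542 thinned mitosis UMIs were counted per 1000 cells in vitro, 428 and 697 in 1-day slices, 527 and 522 in 1-week slices and 460 and 326 in 3-week slices, against 135 and 129 in adult. Free RNA adds to such counts in droplets, and its part was not tested. Mitosis-rich cells were deeper than the rest before thinning in 9 of the 10 libraries, for example 18265 against 12618 UMIs at the median in in vitro replicate 1.

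Each member was compared between cells with 5 or more UMIs over the other 46 genes and cells with none, pooled over the libraries. These values describe how the members go together and carry no test. The libraries differ in level and many of the cells with none were adult, so the ratio over the 6 libraries with at least 20 mitosis-rich cells, none of them adult, is given second (a pooling chosen after seeing the data). Birc5 had 87.7 UMIs per 100 cells in the first and 0.80 in the second, a ratio of 109.7 over all libraries and 74.7 over the 6. Top2a stood at 56.7 against 0.406 (140 and 85.2), Mki67 at 41.6 against 0.279 (149 and 95.6) and Prc1 at 26.7 against 0.0763 (350 and 263). The largest ratio was that of Ttk (562 and 312), with 1 UMI in the cells with none, followed by Prc1, Hmmr (295 and 234) and Kif20a (276 and 203). These genes were nearly silent in cells without other mitosis UMIs. Incenp, the scaffold of the passenger complex, and the condensin subunit Smc4 were spread more widely, at 23.1 against 2.22 (10.4 and 8.11) and 35.4 against 3.31 (10.7 and 7.58). Cdk1 lay between, at 45.8 against 2.54 (18.05 and 12.8), and Cenpa reached 88.7 against 2.90 (30.6 and 20.1). In each of the 6 libraries with at least 20 such cells every member was higher in them, except Ect2 in 4 of 6 and Ttk in 5 of 6.

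The make-up of the mitosis UMIs differed between groups for some members. Cenpa made up 10.6% and 9.7% of them in vitro and 9.7% and 9.32% in slices at 1 week, against 5.11% and 4.75% at 1 day, 4.41% and 5.33% at 3 weeks and 3.58% and 3.6% in adult. Ccnb2 had shares of 6.09% and 5.41% in vitro and 5.67% and 5.79% in slices at 1 week, against 2.73% and 2.63% at 1 day, 3.48% and 3.68% at 3 weeks and 2.01% and 1.7% in adult. Top2a was highest at 3 weeks, with 5.46% and 6.54%, and had shares of 3.58% and 2.8% in adult, 1.95% and 3.27% in 1-day slices, 1.84% and 1.85% in vitro, and 1.64% and 0.756% in 1-week slices. In adult microglia Smc2 (7.49% and 10.4%) and Spc24 (6.57% and 6.4%) took larger shares than in the cultures, where Smc2 was between 2.71% and 4.30% and Spc24 between 1.53% and 4.78%.

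Genes of DNA replication, transcribed in the preceding S phase, did not follow the mitosis genes library by library. In UMIs per 1000000 the 40 replication genes were at 519 and 671 in adult, 558 and 618 in vitro, 1035 and 1424 in 1-day slices, 637 and 657 in 1-week slices and 1273 and 597 in 3-week slices. The unscaled sums of in vitro and adult overlapped here, although their mitosis levels were far apart. The TMM factors that divide the levels given as CPM were 1.10 and 1.14 in adult and 0.917 and 0.898 in vitro. After such scaling both in vitro sums would stand above adult. In the adult sums Slbp alone gave 1475 and 1110 UMIs. Mitosis UMIs were 0.287 and 0.219 times the replication UMIs in adult, 1.74 and 2.34 times in vitro, 0.852 and 0.830 times at 1 day, 0.974 and 1.57 times at 1 week and 0.980 and 1.31 times at 3 weeks. Within mitosis-rich cells, 23 of 181 (12.7%, exact 95% interval 8.23 to 18.5) and 41 of 320 (12.8%, 9.35 to 17.0) in vitro also had 5 or more replication UMIs. At 1 day 17 of 46 (37.0%, 23.2 to 52.5) and 60 of 124 (48.4%, 39.3 to 57.5) did, and at 3 weeks 76 of 132 (57.6%, 48.7 to 66.1) and 75 of 193 (38.9%, 31.9 to 46.1). The in vitro intervals lie below those of all 4 slice libraries. At 1 week it was 0 of 8 and 0 of 6, which allows shares of up to 36.9% and 45.9% by the exact interval, and in adult 4 of 10 and 6 of 9.

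**Figure D5:**
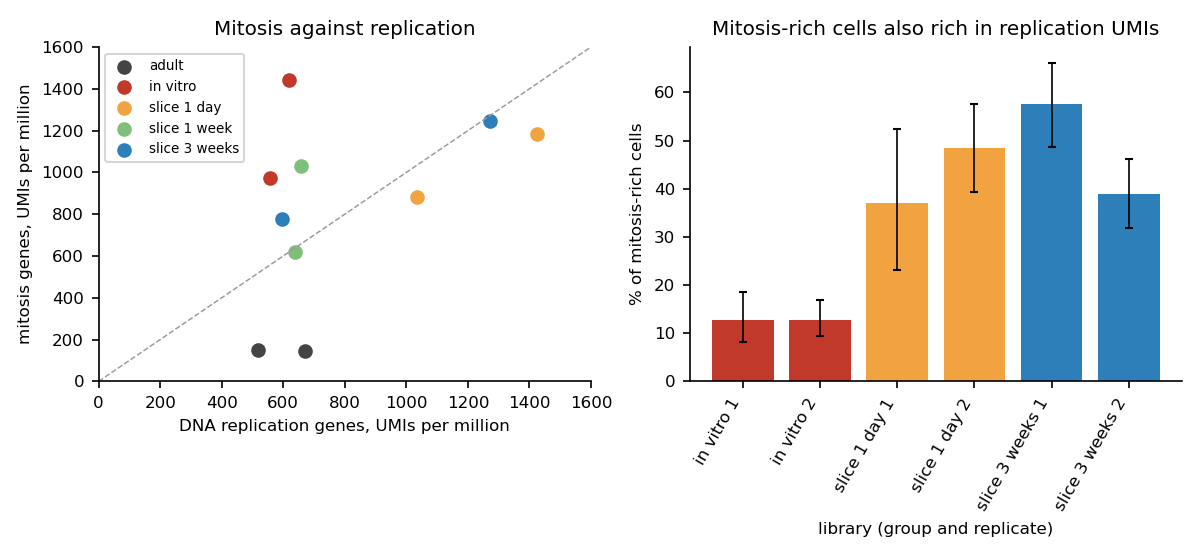
UMIs per 1000000 of the 47 mitosis genes against those of the 40 DNA replication genes in each of the 10 libraries (left, 1 point a library, dashed line for equal levels), and percent of mitosis-rich cells that also held 5 or more replication UMIs in the 6 libraries with at least 20 mitosis-rich cells (right, bars with exact 95% binomial intervals). The in vitro bars stand at 12.7% and 12.8%, and the slice bars between 37.0% and 57.6%.

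In the gene tests 22 of the 40 replication genes were called higher in vitro than in adult and 1 lower, 34 were higher at 1 day, 6 at 1 week and 30 at 3 weeks. As shares these are 55%, 85%, 15% and 75%, beside 22.4%, 24.9%, 15% and 17.9% of all genes tested, so that at 1 week the share was that of all genes. In vitro 20 of 40 were called lower than in slices at 1 day and 10 of 40 lower than at 3 weeks (50% and 25%, beside 18.6% and 19.9% of all genes), and none was higher in either. Pcna, the sliding clamp of DNA polymerase, was at 40.9 and 51.3 CPM in the adult libraries, 67.7 and 72.9 in vitro, 158 and 186 in 1-day slices, 74.1 and 87 in 1-week slices and 138 and 63.5 in 3-week slices. Its in vitro level was lower than at 1 day (-1.29 ± 0.29, edgeR adjusted p = 0.0064), in contrast to Ccnb2 and Cenpa. Slbp, which binds histone mRNA, was the gene called lower in vitro than in adult (-1.11 ± 0.24, edgeR adjusted p = 0.0025), at 108 and 143 CPM in the adult libraries, 60.7 and 55.8 in vitro, 91.2 and 98 in 1-day slices, 87 and 56.3 in 1-week slices and 106 and 65.4 in 3-week slices.

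Most other genes of G2 and M phase were called higher too, except at 1 week. Of 43 such genes 36 were called higher in vitro than in adult, 34 at 1 day, 13 at 1 week and 36 at 3 weeks, with medians of 2.60, 2.43, 1.37 and 2.63 on the log2 scale. As shares these are 83.7%, 79.1%, 30.2% and 83.7%, beside 22.4%, 24.9%, 15% and 17.9% of all genes tested. Called lower were 2, 3, 2 and 3 of them (4.65%, 6.98%, 4.65% and 6.98%), beside 28.5%, 25.3%, 13.6% and 17.5% of all genes. Stmn1, which destabilises microtubules, was at 54.1 and 62.5 CPM in the adult libraries, 291 and 416 in vitro, 151 and 202 in 1-day slices, 232 and 194 in 1-week slices and 301 and 169.5 in 3-week slices, and Ube2s, which extends ubiquitin chains for the anaphase-promoting complex, was at 78.6 and 100.2 CPM in the adult libraries, 226 and 301 in vitro, 198 and 217 in 1-day slices, 135 and 133 in 1-week slices and 147 and 130.3 in 3-week slices. All cultured libraries of both were above adult, and both genes were called higher in each culture. A few were called in the other direction. Espl1, the protease separase, fell in vitro (-2.84), at 1 day (-1.83) and at 3 weeks (-1.34), the condensin subunit Ncaph in all 4 cultures (-1.43 in vitro, -1.54 at 1 day, -2.37 at 1 week and -0.87 at 3 weeks), and Pttg1, securin, at 1 day (-0.94), 1 week (-0.70) and 3 weeks (-0.94).

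Of the regulators of this transcription 4 of 21 tested were called higher and 3 lower in vitro. In slices the counts were 6 higher and 4 lower at 1 day, 1 and 1 after 1 week, and 5 and 2 after 3 weeks. The shares called higher, 19.0%, 28.6%, 4.76% and 23.8%, stood beside 22.4%, 24.9%, 15% and 17.9% of all genes tested, and the shares called lower, 14.3%, 19.0%, 4.76% and 9.52%, beside 28.5%, 25.3%, 13.6% and 17.5%. The activators E2f1 (4.09 in vitro, 3.96 at 1 day, 3.86 at 1 week and 4.24 at 3 weeks) and Foxm1 (3.73 in vitro, 3.37 at 1 day, 2.53 at 1 week and 2.63 at 3 weeks) rose in vitro and in slices at 1 day and 3 weeks, and E2f1 also at 1 week. E2f8 and E2f6, both named after their values were seen, were the other regulators called higher in vitro, at 1.94 and 1.12. E2f4, the E2F of the resting-state complex, was at 54.5 and 59.9 CPM in the adult libraries, 51.4 and 48.8 in vitro, 78.4 and 77.9 in 1-day slices, 42.5 and 28.1 in 1-week slices and 41.9 and 30.1 in 3-week slices, and Lin37, a MuvB subunit, at 42.3 and 41.5 CPM in the adult libraries, 29.9 and 30.4 in vitro, 31.5 and 24.2 in 1-day slices, 23.7 and 7.68 in 1-week slices and 26.3 and 24.2 in 3-week slices. E2f4 was called lower at 3 weeks (-0.68) and Lin37 at 1 day, 1 week and 3 weeks (-0.61, -1.17 and -0.74).

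The list of brakes on the cell cycle is a loose one, since it also holds Fbxo5, an inhibitor of the anaphase-promoting complex. Of its 15 genes 5 were called higher and 3 lower in vitro. In slices they were 8 higher and 2 lower at 1 day, 5 and 3 after 1 week, and 9 and 3 after 3 weeks. The shares called higher were 33.3%, 53.3%, 33.3% and 60%, beside 22.4%, 24.9%, 15% and 17.9% of all genes, and the shares called lower were 20%, 13.3%, 20% and 20%, beside 28.5%, 25.3%, 13.6% and 17.5%. Cdkn1a, which encodes the Cdk inhibitor p21, was at 15.8 and 16.4 CPM in the adult libraries, 113 and 114 in vitro, 519 and 509 in 1-day slices, 196 and 69.1 in 1-week slices and 233 and 419 in 3-week slices. Every cultured library was above adult, with log2 fold changes of 2.82 in vitro, 5.0 at 1 day, 3.12 at 1 week and 4.34 at 3 weeks, and in vitro was lower than 3-week slices (-1.52 ± 0.35) and than 1-day slices (-2.18 ± 0.36). Btg1, an antiproliferative factor, was at 418 and 376 CPM in the adult libraries, 233 and 205 in vitro, 571 and 354 in 1-day slices, 397 and 279 in 1-week slices and 209.95 and 234 in 3-week slices, and was lower in vitro and at 3 weeks. The related Btg2 and the Cdk inhibitor Cdkn1c fell in all 4 cultures, Btg2 by log2 fold changes of -3.31 in vitro, -2.45 at 1 day, -2.25 at 1 week and -2.42 at 3 weeks and Cdkn1c by -4.75 in vitro, -3.29 at 1 day, -3.14 at 1 week and -4.06 at 3 weeks.

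Mitosis-rich cells carried microglial markers. The summed microglial list was at 22452 and 19509 UMIs per 1000000 in mitosis-rich cells in vitro and at 28557 and 26222 in the other cells, and at 45248 and 35507 against 47337 and 39022 in slices at 3 weeks. In adult brain it was 45278 and 40864 against 59331 and 58874. At 1 day it was 14167 and 12894 against 16334 and 13383. At 1 week it was 19653 against 23596 in replicate 1 and 31759 against 28672 in replicate 2, the only library in which the mitosis-rich cells had the higher level. Markers of border macrophages were at 1882 and 1818 in the mitosis-rich cells in vitro and at 2382 and 2203 in the others, and at no more than 371 in any other library. Monocyte markers were at 7.75 and 5.44 per 1000000 over all kept cells in adult, 37.6 and 88.9 in vitro, 507 and 731 in 1-day slices, 1148 and 345 in 1-week slices and 233 and 150 in 3-week slices, with a UMI from 1 to 8 of their 8 genes in a library. In mitosis-rich cells they were at 519 and 712 in 1-day slices and at 1250 and 278 in 1-week slices. The sum moved with culture, but in vitro and at 3 weeks nearly all of it was Fn1. Fn1 had 3 and 3 UMIs in adult, 1237 and 3494 in vitro and 1811 and 3333 at 3 weeks. Ccr2 had 36 and 26 in adult, 36 and 35 in vitro and 5 and 7 at 3 weeks. Plac8 had 52 and 8, 0 and 0, and 0 and 2 in the same groups, so that these genes did not rise there. The part of the monocyte list in the results was not tested. Markers of red cells were at 1852 in adult replicate 1 and 3465 in slice 1 day replicate 1 and at no more than 1.02 elsewhere. Astrocyte markers were at 154 and 148 in adult and at 6.48 to 33.8 in culture. In adult nearly all of their UMIs were of a single gene, Slc1a3 (1858 and 1002), with 18 and 2 of Aldoc, 7 and 0 of Aqp4 and 1 and 1 of Gfap. A list of neurons and progenitors was at 1.78 and 2.94 in adult, 7.27 and 17.1 in vitro, 74 and 82 in 1-day slices, 99 and 57.1 in 1-week slices and 35 and 33.2 in 3-week slices, so that it too moved with culture. In vitro it was at 24.6 and 43.4 in mitosis-rich cells against 5.71 and 10.3 in the others. Nearly all of its UMIs in vitro were of Nes (246 and 674 over the kept cells). Tubb3 had 1 and 5 there, Stmn2 had 0 and 1, and Snap25, Syt1, Dcx, Sox11 and Sox2 had none. Nes was also most of the list in slices at 1 day (253 and 691) and 3 weeks (173 and 689). Markers of lymphocytes were at 5.42 to 77.2, of oligodendrocytes at 17.5 to 106 and of vessels at 4.26 to 35.7. The part of these lists was not tested either. In slices at 1 day the neutrophil list was at 543 and 21505 in mitosis-rich cells and at 18645 and 28115 in the others, and at 1 week at 45069 and 0 against 48910 and 3756. It was at most 210 in every other library. Mature neutrophils do not divide and should lack the mitosis genes, so the neutrophil-rich cells were set beside the rest. Whether these cells were mature is not known. Their mitosis UMIs were at 73.3 per 1000000 in slice 1 day replicate 1, 1482 in slice 1 day replicate 2 and 892 in slice 1 week replicate 1, against 922, 1155 and 576 in the other cells. The first was far below its neighbours and the other 2 were above them. Members of the neutrophil list differed between these 3 libraries too. Over the kept cells Ngp had 83, 18243 and 6336 UMIs, Camp 8, 9513 and 3256 and Ltf 1, 3568 and 794. The reason for the differences among the neutrophil-rich cells was not tested. At least 1 mitosis UMI was seen in 16.9% of them in slice 1 day replicate 1, 65.8% in slice 1 day replicate 2 and 60% in slice 1 week replicate 1, against 68.5%, 90.0% and 79.7% of the other cells, at median depths of 2200, 4834 and 4412 against 7045, 8932 and 7293 UMIs. Mitosis-rich by the thinned count were 0 of 54, 8 of 117 and 1 of 24 of them. With the neutrophil-rich cells left out, an alternative chosen after seeing the data, 47, 47, 28 and 47 members were called higher than in adult in vitro, at 1 day, at 1 week and at 3 weeks. Of all genes 22.7%, 24.9%, 13.6% and 18.3% were.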

How the data were processed

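The 10 libraries were made with the droplet 3′ kit (v2), and the labels put 2 libraries in each of the 5 groups. The deposited files hold UMI counts for each gene symbol and cell barcode, which the authors made with Cell Ranger 1.3.0 on build mm10, per the labels. The authors also combined libraries with an aggregation step, and whether these tables are from before or after it is not given in the sources used here, nor is the annotation. They hold whole numbers of differing depth and were treated as raw. Genes with no count in a library have no row there, and such genes were set to 0. 3 members lacked a row in 1 library each.

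Of 19637 barcodes, 578 were left out by the study's limits (mitochondrial UMIs above 5%, fewer than 400 genes, or more than 30000 UMIs), and no doublet caller was run. The study also removed outlier cells by t-SNE, a step not repeated here, and it kept fewer cells than here at 1 week among others. Counts were summed over the kept cells of each library, and totals ranged from 385373 to 39689540 UMIs, so that precision differed widely between libraries. They were tested in R 4.3.3 with the quasi-likelihood test of edgeR 4.0.16 (TMM scaling, filterByExpr with a minimum count of 10, group as the only term, all 10 libraries in 1 fit, common biological coefficient of variation 18.3%), with Benjamini-Hochberg adjustment over the 12157 genes that passed. Standard errors were taken from the log2 fold change and the F value. CPM are counts per 1000000 of the TMM-scaled library size, while sums over lists are per 1000000 UMIs with no further scaling. DESeq2 1.42.0 was an alternative. The fit was checked on simulated counts first. UMIs were thinned without replacement with a fixed seed in Python 3.11.15 (numpy 2.4.6), and exact binomial intervals came from scipy 1.17.1. Motifs were searched on both strands of the RefSeq windows.

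The 47 members, the 8 roles, the pathway lists and the markers were chosen with earlier results of these data known. Values by library were given for Mki67, Top2a, Cdk1 and the 2 members of each role, and the 2 genes of each pathway list, with the highest mean CPM. Other genes were named where their call set them apart, where they stood at an end of a range, or where a comparison turned on them. 1 further marker of the microglial list is not reported here and was left out of its sums.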

Additional observations from a re-analysis of the deposited data

Results flagged for a closer look

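Barcodes with over 30000 UMIs were left out of the comparisons described above, and entered only the alternatives run with all deposited barcodes or without this limit. Where a library had such barcodes their mitosis UMIs were above the level of the adult cells, which was 149 and 147 per 1000000. In vitro replicate 1 had 81 of them at 3241 per 1000000, in vitro replicate 2 had 74 at 4490, and slice 1 day replicate 2 had 11 at 2347. No adult barcode was over this limit. The cause was not tested.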

How the results depend on the processing

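The comparisons of in vitro, 1-day and 3-week cultures with adult kept 46 or 47 members called higher under every alternative other than the omission of a single library. Of all genes 12% to 80.3% were called higher in these fits, the most when UMIs per cell were left unscaled. With any 1 library left out nearly all members were still called. Spc24, Ttk, Hmmr and Kif2c were the genes that lost such a call. Against adult, slices at 1 week gave 14 calls when cells were thinned to 1800 UMIs and 16 to 25 with 1 library left out, and when thinned 40 of the 47 had a positive fold change instead of 45. Among the members called there, Smc2 (-0.31, edgeR adjusted p = 0.86) and Kif23 (-4.08, edgeR adjusted p = 0.71) turned sign when thinned. These fits rest on few molecules. Kif23 then had 0 and 0 UMIs at 1 week and 4 and 3 in adult, and Smc2 had 1 and 2 at 1 week.

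Between cultures the counts depended more on the settings. In vitro against 3 weeks (8 calls) had 35 when UMIs per cell were left unscaled, 21 with no filter on low counts, 13 with all deposited barcodes, 13 with study label as a term, and 4 to 20 with 1 library left out. In vitro against 1 day (7 calls) had 24 unscaled, 18 with no filter, 4 thinned, 11 with study label, and 3 to 7 with 1 library left out. For 1 week against 1 day (2 calls) there were 10 lower unscaled, beside 4.97% of all genes, and 12 lower with no filter (6.38%). There were 0 thinned, where 0.82% of all genes were called higher and 1.3% lower. Without neutrophil-rich cells (an alternative chosen after seeing the data) there were 4 lower (6.55%). For 3 weeks against 1 day (3 calls) there were 5 higher with no filter (11.6% of all genes) and 5 higher with all barcodes (13.8%). Unscaled there were 1 higher and 5 lower (2.7% and 17%), and with study label 2 higher and 5 lower (15.4% and 14.8%). For 3 weeks against 1 week (4 calls) there were 10 with no filter, 0 thinned and 0 to 6 with 1 library left out. The unscaled setting shifted the median of all genes against adult by 2.15 in vitro, 1.55 at 1 day, 1.19 at 1 week and 1.08 at 3 weeks. Beyond these shifts of scale the causes were not tested. Leaving both 1-week libraries out of the fit, also chosen after seeing the data, gave 7 higher and 2 lower for in vitro against 3 weeks (beside 16% and 18.3% of all genes).

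Replicate numbers are shared by the groups but did not pair the libraries, since the deviations of same-numbered libraries correlated between -0.112 and 0.0941 over the 10 pairs of groups. With replicate number as a block, 3 weeks against 1 day had 5 calls and the other counts were within 1.5 times of those given.

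The adult level was 107 per 1000000 as a mean over cells. The mean share of mitosis-rich cells was 34.1% in vitro, 25.7% at 1 day, 14.8% at 1 week and 13.6% at 3 weeks with no thinning, 1.79% in adult (0.473% in replicate 1, and 3.11% in replicate 2 where only 193 cells were deep enough) and 14.9% at 1 day when thinned to 3000 UMIs, 15.3% at 1 day with a limit of 3 UMIs, and 6.89% at 1 day and 4.32% at 1 week with a limit of 8. The 1-week groups, with 148 and 61 cells, limit every statement about that time.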
